A study of Homo sapiens with 4 samples.

Results

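Chromosome 18 is one of the human autosomes with the fewest genes, and its replication was followed in single S-phase cells of DKO1 and of HCT116. All bins assigned to chromosome 18 in a table of replication states were taken, which gave 719 of 27704 bins (2.60%), each 80 kb long. HCT116 is a human colorectal cancer cell line, and DKO1 is its derivative with a knockout of both DNMT1 and DNMT3B, which encode DNA methyltransferases, per the series' design text. Both lines were grown in the same serum-supplemented medium and sorted by DNA content, and the early, mid and late S-phase fractions of each line were pooled in equal numbers for 1 droplet copy-number library. The table held 207 DKO1 cells and 322 HCT116 cells, and the lines had no barcode in common. Libraries of G1 cells were not analysed here. Whether any DNMT1 or DNMT3B remained in DKO1 was not examined, and DKO1 is 1 derived line.

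A replicated stretch of DNA has more copies than an unreplicated one, so copy number along the genome of one cell shows which parts have been copied. Replication starts at clusters of origins that fire at a preferred time, and megabase-long domains with many active genes are generally copied early, while gene-poor domains, often attached to the nuclear lamina, are copied late. Chromosome 18 lies near the nuclear periphery in many human cell types, in contrast to gene-rich chromosome 19. DNMT1 copies methylation onto newly made DNA strands, and DNMT3B can add it to unmethylated sites. Among the genes of chromosome 18 are SMAD4 and SMAD2, which transmit TGF-beta signals, DCC, a netrin receptor gene, BCL2, a gene of an inhibitor of cell death, and MBD1 and MBD2, whose products bind methylated DNA. Because no annotation of the build of the table was used, these genes were not placed in bins.

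The table gives each bin of each cell a code. Code 2 was taken to mean replicated and code 1 unreplicated. The reason is that gene-dense chromosomes had more code 2 (Spearman's rho over the 21 chromosomes with 100 or more bins 0.871 in DKO1 and 0.851 in HCT116, a description across chromosomes that share the same libraries). Code 0 was treated as not called. Progress through S phase was measured as the replicated percent of all called autosomal bins in a cell. Its median was 48.8% in DKO1 and 52.7% in HCT116. Cells were sorted into 6 strata of progress of 10 points each, from 20 to 80%, which held 206 DKO1 and 320 HCT116 cells. For each bin the percent of cells with a replicated call was taken within each stratum, and the mean over the 6 strata, equally weighted, is called its standardised share. This sets DKO1 and HCT116 side by side at matched progress. With a single library for each line, DKO1 and HCT116 could not be tested against each other, and no p-value is given. Intervals given for counts of cells are exact binomial (Clopper-Pearson) 95% intervals, which cover counting error of cells only.

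A few cells stood apart on chromosome 18. A quadratic curve of the replicated percent of chromosome 18 on the progress over the other autosomes was fitted in each line, and 8 of 207 DKO1 cells (3.86%, interval 1.68 to 7.47%) and 2 of 322 HCT116 cells (0.621%, 0.0753 to 2.23%) lay more than 15 points from it. Over all 21 chromosomes the same limit was passed by 4.92% of the chromosomes of DKO1 cells and 1.70% of those of HCT116 cells, so chromosome 18 was below these levels in both lines. In one DKO1 cell at 74.7% progress no called bin of chromosome 18 was replicated, and in another at 65.8% progress every called bin was. The first of these is 1 of only 10 DKO1 cells in the highest stratum, and it lowers the DKO1 value of every bin there. The main results are therefore also given without the 8 DKO1 and 2 HCT116 cells. A set of 60 DKO1 and 187 HCT116 cells of the strata had code 0 in no more than 1% of their autosomal bins and are called cleaner cells below. Among cells this clean, 0 DKO1 cells and 1 HCT116 cell lay more than 15 points away. Code 0 made up 2.85% of calls on the other autosomes in DKO1 and 1.08% in HCT116, but 1.29 and 1.12% on chromosome 18. With code 0 counted as unreplicated, the mean share of chromosome 18 given below differed by -1.60 points and 78 of its bins were at least 15 points lower in DKO1.

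**Figure D1:**
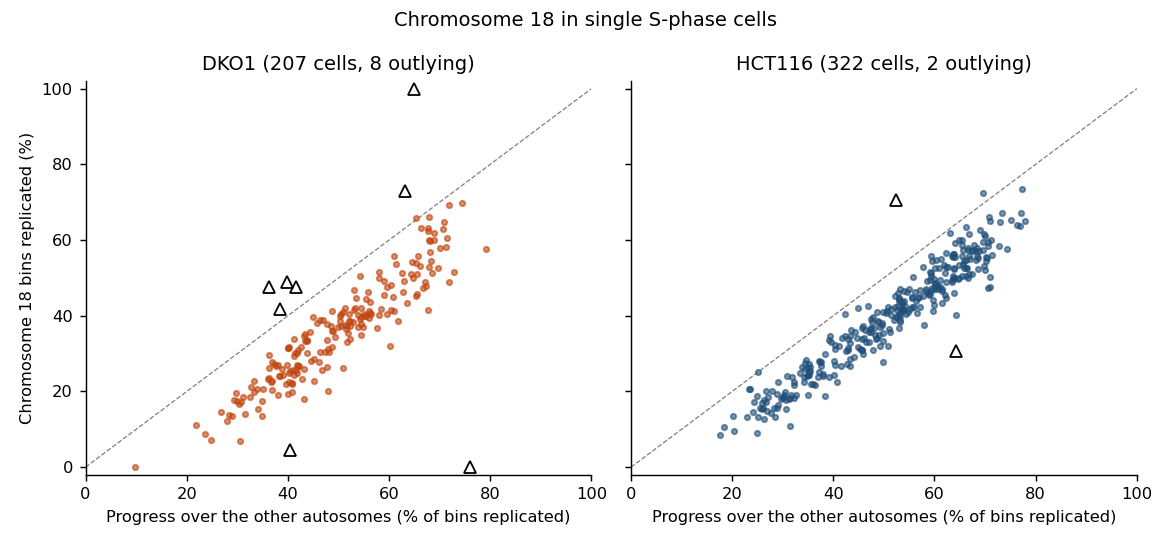
Each point is 1 S-phase cell of DKO1 (left) or HCT116 (right), with the percent of bins replicated on the other autosomes on the x axis and the percent of chromosome 18 bins replicated on the y axis. Triangles mark the 8 DKO1 and 2 HCT116 cells more than 15 points from the curve of their line, the dashed line marks equal percentages, and nearly all cells lie below it.

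The chromosome was gene-poor and late among the autosomes. It has 270 protein-coding genes in the RefSeq table of GRCh38, or 3.36 per Mb of the span of its genes, which ranks second lowest of the 21 chromosomes after chromosome 13 with 2.96 per Mb. When all autosomal bins were split into 3 equal classes by the mean of both lines' shares, 48.3% of the chromosome 18 bins fell in the late class, the highest percentage of the 21 chromosomes, and 20.4% in the early class. In 200 of 207 DKO1 cells (96.6%) and 319 of 322 HCT116 cells (99.1%) less of chromosome 18 was replicated than of the other autosomes. The median lag was -13.7 points in DKO1 and -11.4 points in HCT116.

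In both lines chromosome 18 filled in gradually as S phase went on. In cells at 20 to 30% progress a mean of 13.02% of its bins was replicated in DKO1 (SD 4.24 over 11 cells) and 16.7% in HCT116 (SD 3.45 over 33 cells). At 30 to 40% progress the means were 23.4% in DKO1 (SD 7.25, 41 cells) and 24.0% in HCT116 (SD 4.57, 48 cells). At 40 to 50% they were 31.2% in DKO1 (SD 6.61, 53 cells) and 34.1% in HCT116 (SD 4.17, 60 cells). At 50 to 60% they were 40.4% in DKO1 (SD 4.76, 51 cells) and 44.5% in HCT116 (SD 5.31, 78 cells). At 60 to 70% the means were 54.5% in DKO1 (SD 10.6, 40 cells) and 53.6% in HCT116 (SD 5.71, 82 cells), but the medians were 53.1 and 54.1%, and the means without the outlying cells 52.8 and 53.9%. At 70 to 80% progress the means were 54.3% in DKO1 (SD 20.3, 10 cells) and 60.9% in HCT116 (SD 6.95, 19 cells), while the medians of the same cells were 59.3 and 63.7%, and the means without the outlying cells 60.4 and 60.9%. In every stratum the gap between the lines was smaller than the SD over DKO1 cells. At 20 to 30% progress it was larger than the SD over HCT116 cells. These SDs are spreads between cells and not errors of the means, so they do not tell how certain a gap is. Progress was matched by stratum only, and within strata its median could differ either way. It was 27.9% in DKO1 and 26.1% in HCT116 at 20 to 30%, but 43.5 and 45.6% at 40 to 50%. How much of each gap this makes was not tested.

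Over the 6 strata together, chromosome 18 had a mean standardised share of 36.2% in DKO1 and 38.8% in HCT116, a difference of -2.59 points. This was the lowest share of the 21 chromosomes in DKO1 and the second lowest in HCT116, after chromosome 13. The difference was the second most negative, after chromosome 7 with -3.02 points, while chromosome 13, the poorest in genes, had a difference of 2.92 points. Chromosomes 17 and 19, both rich in genes, differed by 0.424 and 4.71 points. Without the outlying cells the difference of chromosome 18 was -2.29 points, the third most negative after each chromosome had been freed of its own outlying cells.

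The 719 bins ran from 560001 to 64480000 (builds hg19 and GRCh37 per the submitters' processing notes), and the end of the long arm beyond was not analysed here. Statements on the whole chromosome or on its distal long arm therefore cover these bins only. A stretch without bins from 15200001 to 19040000 separated a short arm of 169 bins (13.5 Mb covered) from a long arm of 550 bins (44.0 Mb). The short arm was replicated somewhat earlier than the long arm in both lines. Its standardised share was 39.2% in DKO1 and 42.5% in HCT116, against 35.3 and 37.7% on the long arm. The arms differed between the lines by -3.30 points on the short arm and -2.37 points on the long arm, or -2.67 and -2.17 points without the outlying cells.

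The chromosome was a chain of 22 timing domains, 11 early and 11 late. Domains were runs of at least 5 bins on one side of 50% of the mean of both lines' shares, after a running mean over 5 bins within an arm. Early domains covered 21.2 Mb, or 36.9% of the bins, with a median length of 1.68 Mb, and late domains covered 36.3 Mb with a median length of 2.80 Mb. The longest late domain spanned 8.24 Mb and the longest early domain 5.6 Mb, both on the long arm. Early domains made up 40.2% of the bins of the short arm and 35.8% of those of the long arm. The domain map depended on the line that drew it. From DKO1 alone there were 20 domains with 32.5% of bins early, and from HCT116 alone 24 domains with 40.3% early.

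**Figure D2:**
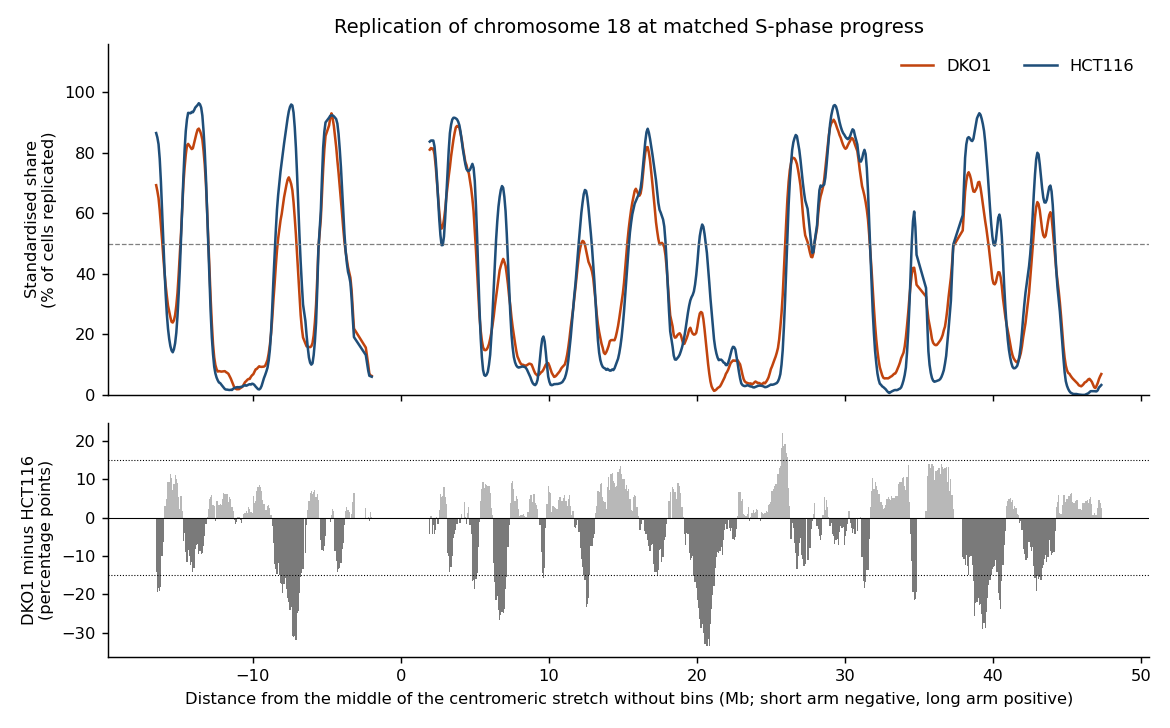
Upper panel, standardised share of each bin of chromosome 18 (running mean over 5 bins, percent of cells replicated) in DKO1 and HCT116 against the distance in Mb from the middle of the centromeric stretch without bins. Lower panel, DKO1 minus HCT116 for each bin in percentage points, with dotted lines at -15 and 15. Peaks and valleys stood at like positions, and the HCT116 curve was above the DKO1 curve at nearly all peaks.

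All 11 early domains had a lower share in DKO1. Over the 21 chromosomes, 76.0% of 396 early domains found in the same way were lower in DKO1. The median difference of the 11 domains was -12.0 points, against -5.16 points for all early domains. Chromosome 18 was the only one of the 21 chromosomes on which every early domain was lower, and chromosome 4 came next with 23 of 24 and a median difference of -12.3 points. A difference of at least 15 points was reached by 5 of the 11 early domains, against 15.7% of the early domains of the 21 chromosomes. The count of 11 was unchanged without the outlying cells, but it was 10 in the strata from 30 to 70% alone and 9 in the cleaner cells. When only the 373 bins called in at least 99% of cells were used, 7 of the 10 early domains with bins left were lower.

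The late domains were divided. The share was higher in DKO1 in 7 of the 11 late domains and lower in 4, while 71.0% of the late domains of the 21 chromosomes were higher and 29.0% lower. Differences ran from -6.48 to 6.63 points. Of the 11 late domains 0 were at least 15 points lower, against 1.02% of the late domains of the 21 chromosomes. Late domains at least 15 points higher were not counted over the 21 chromosomes. The median difference of the 11 was 1.73 points, against 3.94 points over all 393 late domains. In the cleaner cells 5 late domains were higher in DKO1.

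On the short arm, early domains alternated with late ones from the first bins onward. The first early domain, from 560001 to 1040000 at the outer end, had a share of 63.0% in DKO1 and 79.5% in HCT116, a difference of -16.5 points. Most of it was replicated in 137 of 205 DKO1 cells (66.8%, 59.9 to 73.2%) and in 267 of 320 HCT116 cells (83.4%, 78.9 to 87.3%). These and the following counts pool the cells of the 6 strata and do not weight them by progress. The next early domain, from 2240001 to 4160000, was the earliest of the whole chromosome in both lines, with shares of 78.4% in DKO1 and 85.2% in HCT116. Its difference of -6.83 points was 1.42 points in the cleaner cells. Between them lay a late domain from 1040001 to 2240000, with 31.4% in DKO1 and 24.7% in HCT116, a difference of 6.63 points that ranged from 2.97 to 10.9 points under the alternatives.

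The third early domain of the short arm, from 8720001 to 10240000, differed most on that arm. Its share was 61.0% in DKO1 and 82.7% in HCT116, a difference of -21.7 points, and all 19 of its bins were lower in DKO1. It was replicated for the most part in 140 of 205 DKO1 cells (68.3%, 61.4 to 74.6%) and in 293 of 320 HCT116 cells (91.6%, 88.0 to 94.4%). From the lowest stratum of progress to the highest, the replicated share of its bins was 22.97, 38.4, 54.5, 75.95, 92.7 and 81.6% in DKO1, against 44.8, 69.96, 86.1, 96.4, 99.04 and 100% in HCT116. DKO1 was lower in all 6 strata, and the gap was smallest at 60 to 70% progress, when most cells of both lines had copied the domain. Among the 11 early domains it ranked 8th in DKO1 and 4th in HCT116. On either side lay late domains, one of 4.56 Mb from 4160001 to 8720000 with 10.3% in DKO1 and 7.95% in HCT116, and one from 10240001 to 11600000 with 22.1 and 23.3%.

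Toward the centromere the lines were closer. The fourth early domain of the short arm, from 11680001 to 13360000, had shares of 76.6% in DKO1 and 83.0% in HCT116. The pericentromeric late domain from 13360001 to 15200000 had 26.1% in DKO1 and 24.4% in HCT116. Across the stretch without bins the long arm opened with an early domain from 19040001 to 22240000, with shares of 73.5% in DKO1 and 76.6% in HCT116. Its difference of -3.07 points was the smallest among the early domains, and 174 of 204 DKO1 cells (85.3%, 79.7 to 89.9%) and 274 of 320 HCT116 cells (85.6%, 81.3 to 89.3%) had copied most of it.

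A pair of short early domains on the proximal long arm had a share above 50% in HCT116 and below it in DKO1. The domain from 23680001 to 24240000 had a share of 43.4% in DKO1 and 67.4% in HCT116, a difference of -24.0 points, the largest among the domains. Most of it was replicated in 93 of 206 DKO1 cells (45.1%, 38.2 to 52.2%) and in 230 of 319 HCT116 cells (72.1%, 66.8 to 77.0%). The domain from 29200001 to 29920000 had 47.9% in DKO1 and 64.1% in HCT116, a difference of -16.1 points, which was -11.4 points in the cleaner cells and -6.34 points in the bins with a call in 99% or more of the cells. It was mostly replicated in 107 of 204 DKO1 cells (52.5%, 45.4 to 59.5%) and in 222 of 318 HCT116 cells (69.8%, 64.4 to 74.8%). Between them, the late domain from 24240001 to 29200000 had nearly the same share in both lines, 14.9% in DKO1 and 13.5% in HCT116. The late domain before the pair, from 22240001 to 23680000, had 22.5% in DKO1 and 23.7% in HCT116. The late domain after it, from 29920001 to 32480000, had 25.8% in DKO1 and 19.5% in HCT116, a difference of 6.34 points that ranged from 2.13 to 9.43 points under the alternatives.

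The middle of the long arm held the largest domains of either kind. The early domain from 32480001 to 34960000 had a share of 65.0% in DKO1 and 69.3% in HCT116. The late domain from 34960001 to 43200000 followed, with 14.0% in DKO1 and 17.3% in HCT116. The early domain from 43200001 to 48800000, the longest on the chromosome, had 72.7% in DKO1 and 77.1% in HCT116, and most of it was replicated in 86.9% of DKO1 cells and 87.2% of HCT116 cells. In all 3 domains the lines differed by less than 5 points.

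On the distal long arm most domain means differed more. In the late domain from 48800001 to 54480000 the share was 20.7% in DKO1 and 14.6% in HCT116, and 18 of 204 DKO1 cells (8.82%, 5.31 to 13.6%) but 6 of 318 HCT116 cells (1.89%, 0.696 to 4.06%) had copied most of it. It was the only late domain whose intervals did not overlap, but in the cleaner cells its shares were 14.9% in DKO1 and 12.9% in HCT116, a difference of 2.005 points. The neighbouring early domain from 55040001 to 56960000 went the other way, with 64.7% in DKO1 and 83.4% in HCT116, a difference of -18.6 points. It was mostly replicated in 152 of 204 DKO1 cells (74.5%, 68.0 to 80.3%) and in 291 of 319 HCT116 cells (91.2%, 87.6 to 94.1%), and it ranked 6th among the early domains in DKO1 and 2nd in HCT116. Its difference was -17.6 points without the outlying cells and -11.0 points in the cleaner cells. The late domain from 56960001 to 59760000 had 25.9% in DKO1 and 32.4% in HCT116, and the early domain from 59760001 to 61280000 had 57.3 and 69.3%.

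The last domain, a late one from 61280001 to 64480000, was the latest of the chromosome. Its share was 10.2% in DKO1 and 6.67% in HCT116. Most of it was replicated in 5 of 203 DKO1 cells (2.46%, 0.804 to 5.65%) and in 0 of 315 HCT116 cells, which allows a share of up to 0.952% by a limit of 3 cells, or up to 1.16% by the exact interval. In 39 of its 40 bins the share was higher in DKO1, or equal. Cells late enough to copy such domains were few, since only 10 DKO1 and 19 HCT116 cells were past 70% progress.

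**Figure D3:**
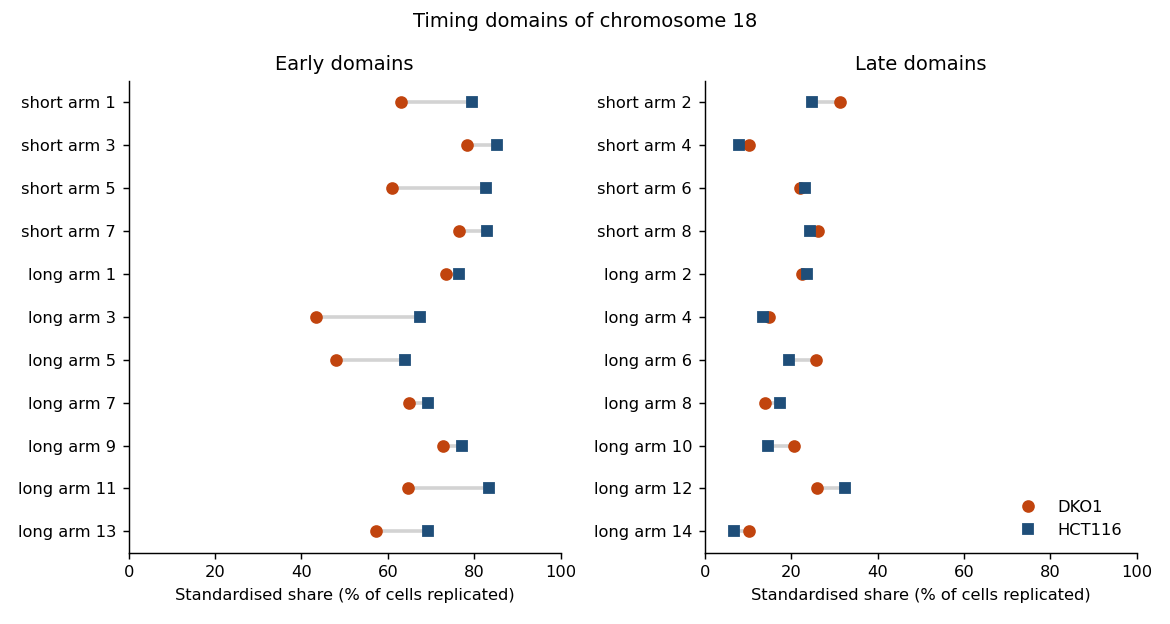
Standardised share (percent of cells replicated) of the 11 early domains (left) and 11 late domains (right) of chromosome 18, numbered along each arm from the short-arm end and from the centromere. Circles are DKO1 and squares HCT116; all 11 early domains have the circle to the left of the square, while 7 of the 11 late domains have it to the right.

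Domain timing was also read from a logistic curve of the domain's state on cell progress. The progress at which 50% of cells had copied a domain ran from 25.9 to 53.3% for the early domains of DKO1 and from 20.4 to 40.4% for those of HCT116. It was later in DKO1 for 9 of the 11 early domains, by a median of 7.05 points over all 11. The widest delays were 14.6 points for the short-arm domain from 8720001 (40.5% in DKO1 and 25.9% in HCT116), 14.4 points for the long-arm domain from 23680001 (53.3 and 38.8%) and 14.0 points for the one from 55040001 (34.5 and 20.4%). The HCT116 value of 20.4% lies close to 20%, below which no value was given. The least advanced HCT116 cell was at 17.3% progress, so few cells bear on that value from below. The 2 exceptions were the long early domains from 32480001 (34.8% in DKO1 and 38.4% in HCT116) and from 43200001 (26.4 and 29.5%). Among the late domains both curves reached 50% within the strata for 7, later in DKO1 in 4 of them, with a median difference of 0.498 points and a range from -10.02 to 8.87 points. The lowest of these belonged to the domain from 29920001, at 68.4% progress in DKO1 and 78.4% in HCT116. The curves were wider in DKO1 for all 11 early domains, although for the domain from 19040001 both widths were 13.1 points. The progress between 25 and 75% of cells had a median of 21.04 points in DKO1 and 13.6 points in HCT116.

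The difference between the lines was set beside that of bins of like timing elsewhere. Early-class bins of chromosome 18 (147 bins) had a mean share of 78.2% in DKO1 and 86.7% in HCT116, a difference of -8.48 points, while early-class bins of the other autosomes differed by -3.11 points. Middle-class bins (225 bins) had 46.3% in DKO1 and 54.1% in HCT116, a difference of -7.77 points, against -1.86 points elsewhere. Late-class bins (347 bins) had 11.9% in DKO1 and 8.63% in HCT116, a difference of 3.26 points, against 5.16 points elsewhere. With each chromosome freed of its outlying cells the differences on chromosome 18 were -6.89, -7.01 and 2.71 points, against -2.41, -1.71 and 4.71 points on the other autosomes. Chromosome 13 resembled chromosome 18 in its early bins (-6.99 points) but not in its middle (1.43 points) or late bins (8.70 points). Bins are not replicates, and these contrasts were not tested.

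The profile of chromosome 18 was flatter in DKO1. The SD of the share across its bins was 27.7 points in DKO1 and 33.0 points in HCT116. A share of at least 80% was reached by 67 bins (9.32%) in DKO1 and 130 bins (18.1%) in HCT116, and a share of at most 10% was found in 173 bins (24.1%) in DKO1 and 232 bins (32.3%) in HCT116. Over all autosomal bins, 24.3% in DKO1 and 28.6% in HCT116 reached at least 80%, and 11.8% in DKO1 and 21.2% in HCT116 had at most 10%, so both extremes held fewer bins in DKO1 there too. The order of the bins was nonetheless much alike, with Pearson's r of 0.958 between the lines across the 719 bins, against 0.953 across all autosomal bins.

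Large shifts on chromosome 18 went nearly all one way. A share at least 15 points lower in DKO1 was found in 97 of the 719 bins (13.5%), against 7.39% of all autosomal bins. A share at least 15 points higher was found in 6 bins (0.834%), against 6.90% of all autosomal bins. The first percentage was the highest and the second the lowest of the 21 chromosomes. Chromosomes 4 (13.2%) and 7 (12.7%) had almost as many lower bins, but 7.88 and 5.48% of their bins were higher. Without outlying cells 88 bins (12.2%) were lower and 6 higher, and chromosome 18 kept both places. By any amount, 350 bins (48.7%) were lower in DKO1, close to the 49.9% of all bins, so the imbalance lay in the large differences.

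**Figure D4:**
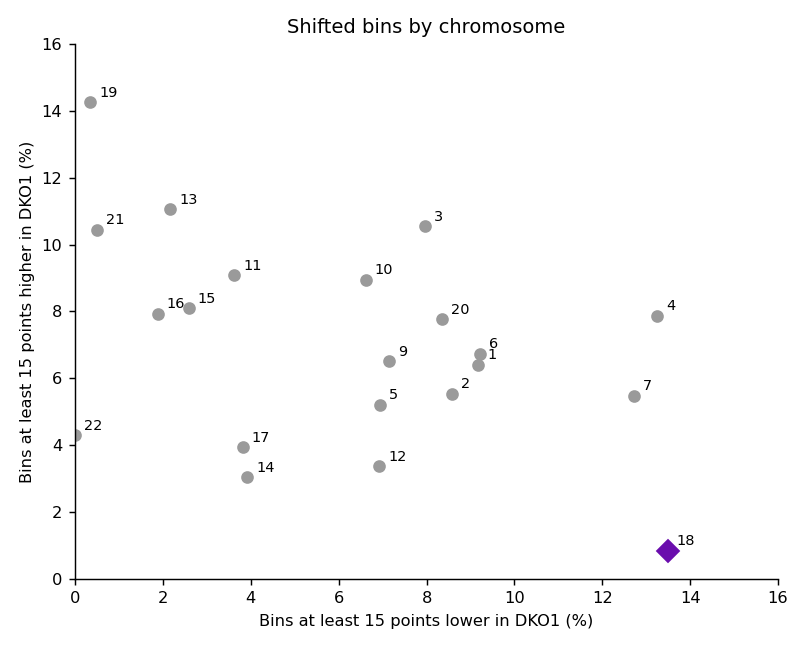
Percent of the bins of each of 21 chromosomes at least 15 points lower in DKO1 (x axis) and at least 15 points higher in DKO1 (y axis), with chromosome 18 as a diamond. It lies at the lower right, with 13.5% of bins lower and 0.834% higher.

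The large differences were gathered in 7 regions, which are runs of at least 5 bins that all differed by at least 15 points in one direction. They were chosen for their difference, so their values are a description. The 6 lower regions held 75 bins (6 Mb), and the single higher one held 6 bins. Per 100 Mb of used bins this made 10.4 lower and 1.74 higher regions, against 7.05 and 6.72 over all autosomes. Lower regions were denser still on chromosomes 4 (11.7) and 7 (14.0), among others. The region ranked first by summed difference, from 36880001 to 38320000, lay inside the longest late domain. It formed an island there in HCT116, where its bins reached 59.4%, against at most 30.7% in DKO1. Its mean share was 16.3% in DKO1 and 42.0% in HCT116, a difference of -25.7 points. More than 50% of its bins were replicated in 26 of 204 DKO1 cells (12.7%, 8.50 to 18.1%) and in 134 of 315 HCT116 cells (42.5%, 37.0 to 48.2%). By stratum of progress its share was 0.505, 5.96, 8.91, 13, 42.1 and 27.1% in DKO1, against 18.9, 25.5, 30.1, 45.2, 65.7 and 66.4% in HCT116. DKO1 was lower in every stratum. This difference ranged from -28.4 to -22.7 points under the 9 alternatives that kept its bins.

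The other lower regions were mostly the crests of early domains. The second, from 8880001 to 10400000, covered most of the third early domain of the short arm and reached into the late domain on its centromeric side, with 58.7% in DKO1 and 80.9% in HCT116. The third, from 55760001 to 56960000, had 61.9% in DKO1 and 84.8% in HCT116, a difference of -22.9 points. Its share at 60 to 70% progress was 95% in DKO1 and 96.9% in HCT116, the closest values of the 6 strata, and at 70 to 80% it was 65.3 and 100%. The fourth, from 23440001 to 24320000, had 40.1% in DKO1 and 62.2% in HCT116. A pair of shorter ones, from 29440001 to 29920000 and from 59920001 to 60400000, had 46.7 and 62.5% in DKO1, against 65.6 and 78.8% in HCT116. The difference of the first of these was -10.5 points in the bins called in at least 99% of cells. The intervals of the lines did not overlap in any of the 6, which the choice of the regions by their difference in these same cells favours, so this is no separate support. Without outlying cells 4 lower regions remained long enough to be counted, and in the alternatives described with the processing the number ran from 3 to 14.

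The one region higher in DKO1 was small and lay at a border. From 42800001 to 43280000, where the longest late domain meets the longest early one, the share was 46.0% in DKO1 and 27.6% in HCT116, a difference of 18.4 points. Most of it was replicated in 77 of 204 DKO1 cells (37.7%, 31.1 to 44.8%) and in 67 of 316 HCT116 cells (21.2%, 16.8 to 26.1%). In the cleaner cells the difference was 9.43 points, and the region was then not found.

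**Figure D5:**
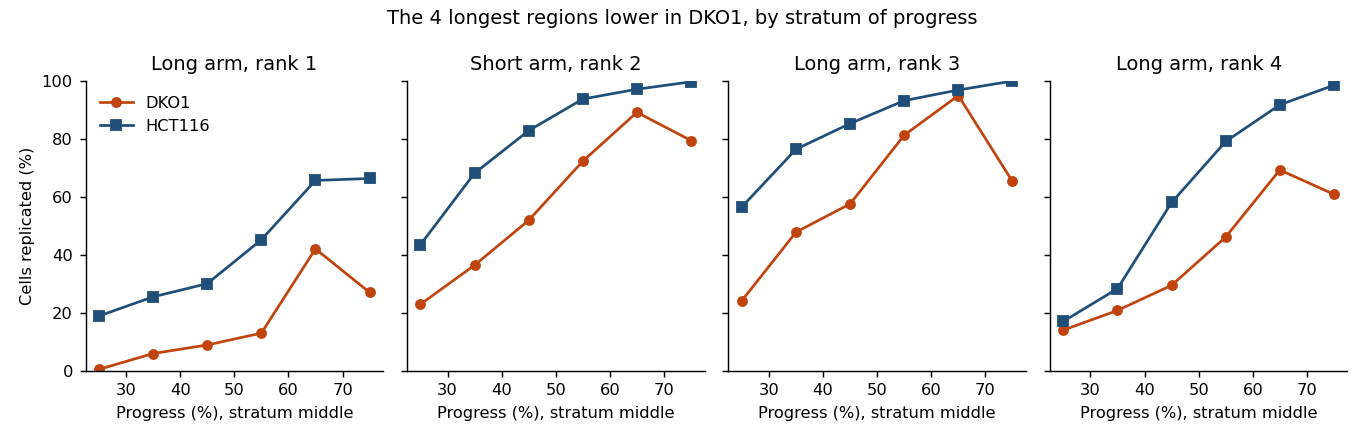
Replicated share (percent of cells, mean over bins) of the 4 longest regions lower in DKO1, by stratum of S-phase progress, with circles for DKO1 and squares for HCT116. DKO1 is below HCT116 in all 6 strata of each region, and the dip of DKO1 in the last stratum rests on 10 cells, in one of which no bin of chromosome 18 was replicated.

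Peaks of the profile stood at like places in both lines and were mostly lower in DKO1. Local maxima of the smoothed share with a prominence of at least 10 points, a measure chosen after seeing the data, numbered 15 in DKO1 and 17 in HCT116, and 14 of the HCT116 peaks had a DKO1 peak within 400 kb. At all 17 HCT116 positions the DKO1 share was lower, with a median of 69.7% in DKO1 and 85.9% in HCT116. Since these positions are the maxima of HCT116, its values there are raised by the choice. At the DKO1 peak from 12400001 to 12480000 the order was the other way round, with 93.1% in DKO1 and 92.4% in HCT116. Inside late domains HCT116 had 4 of its 17 peaks. At 37440001 to 37520000 the smoothed share was 27.1% in DKO1 and 56.3% in HCT116, and at 51760001 to 51840000 it was 42.0% in DKO1 and 60.6% in HCT116, and both lines had a peak there. At 26720001 to 26800000 it was 8.36% in DKO1 and 19.3% in HCT116, and at 57520001 to 57600000 it was 40.5% in DKO1 and 59.6% in HCT116, with no DKO1 peak within 400 kb of either.

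Early territory was narrower in DKO1 as well. The smoothed share was at least 50% over 19.04 Mb (33.1% of bins) in DKO1 and 23.04 Mb (40.1%) in HCT116. The profile crossed 50% at 22 places in DKO1 and 30 in HCT116, and 20 crossings could be paired within 1 Mb. The early side was shorter in DKO1 at 16 of these 20 borders and longer at 4, with a median retreat of 79.6 kb, about the length of a bin. Shifts ran from -141 to 483 kb, where negative values mean a longer early side in DKO1, and 8 borders moved by 80 kb or less. Early territory and borders are given for chromosome 18 alone, so a retreat particular to this chromosome is not shown.

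The order of the domains was also read in single cells at 40 to 60% progress (104 DKO1 and 138 HCT116 cells). Of the 11 early domains, a median of 9 was mostly replicated in DKO1 cells (range 2 to 11) and 11 in HCT116 cells (range 5 to 11). All 11 were replicated in 13 DKO1 cells (12.5%, 6.83 to 20.4%) and in 76 HCT116 cells (55.1%, 46.4 to 63.5%). None of the 11 late domains was mostly replicated in 52 DKO1 cells (50%, 40.03 to 59.97%) and in 91 HCT116 cells (65.9%, 57.4 to 73.8%). A late domain was replicated while an early domain of the same chromosome was not in 47 DKO1 cells (45.2%) and in 18 HCT116 cells (13.04%). The domains were drawn from the same cells, which favours the order in both lines. Progress was not matched within this range, where 53 DKO1 and 60 HCT116 cells lay below 50% and 51 and 78 above. The early domains from 23680001 and 29200001 had DKO1 shares of only 43.4 and 47.9%. A domain copied later in DKO1 thus also counts here as a break of order. Other autosomes were not set beside these counts.

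Cells of a line also differed from each other more in DKO1. Pairs of these cells within 5 points of progress differed in 22.2% of chromosome 18 bins in DKO1 (2329 pairs) and in 17.98% in HCT116 (4124 pairs), 1.23 times as many, against 1.35 times on the other autosomes. In the early domains pairs differed in 29.4% of bins in DKO1 and 19.8% in HCT116, and in the late domains in 17.9 and 16.5%. Among the cleaner cells the values on chromosome 18 were 18.5% in DKO1 and 17.3% in HCT116, so the difference of 4.204 points was 1.29 points there. The state switched along the chromosome a median of 31 times in DKO1 cells (quartiles 27 and 36) and 34 times in HCT116 cells (quartiles 30 and 40).

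How far both arms of a cell departed together depended on the outlying cells. The departures of the short and long arm from their curves on progress correlated with Pearson's r of 0.519 over 207 DKO1 cells and -0.172 over 322 HCT116 cells. Without the outlying cells r was 0.145 over 199 DKO1 cells and 0.00149 over 320 HCT116 cells. The arms of a cell share its library, its depth and the progress value used for the curves.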

How the data were processed

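Single-cell replication was measured by droplet copy-number sequencing of 1 S-phase library of DKO1 and 1 of HCT116. The authors deposited 1 table of state codes (0, 1 or 2) for each cell and 80 kb bin, which are neither counts nor a level. Per the submitters' processing notes, bedtools 2.26.0, SAMtools 1.10 and Cell Ranger were used, with hg19 and GRCh37 as builds. How deeply each cell was sequenced, which program assigned the codes and what it filtered is not given in the sources used here; the precision of a single call is thus unknown.

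A bin was used where 90% or more of the cells in each line had a call for it, which kept all 719 bins of chromosome 18 and 27142 of 27704 in all. Shares were averaged over 6 strata of progress. Domains, shifted regions, pair differences and outlying cells were computed as stated with each result. All timing domains and each shifted region of chromosome 18 were reported, and chromosomes 13, 17 and 19 were set for comparison, while chromosomes 4 and 7 were named after their values were seen. The measure of peaks, that of borders, and the values of each chromosome, class and stratum without outlying cells were also added after seeing the data. The chromosome and all lists were chosen with earlier results of these data known. Cells are not replicates, no doublet caller was run, and no gene list was used. Functions were tested on simulated data. The work used Python 3.11.15, numpy 2.4.6, pandas 2.3.3, scipy 1.17.1 and matplotlib 3.10.9.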

Additional observations from a re-analysis of the deposited data

Results flagged for a closer look

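Code 0, which was left out of the shares and used to filter bins and cells and as an alternative state, was present on chromosome 18 at a higher level in DKO1 than in the parental line, with 1.29% of calls in DKO1 and 1.12% in HCT116. Most cells had none there, namely 194 of 207 DKO1 cells and 307 of 322 HCT116 cells. It exceeded 10% of the chromosome's bins in 9 DKO1 cells (4.35%, exact binomial interval 2.01 to 8.09%) and in 10 HCT116 cells (3.11%, 1.499 to 5.64%), intervals that overlap. A single cell held 14.7% of it in DKO1 and 19.5% in HCT116. What code 0 stands for is not given in the sources used here.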

How the results depend on the processing

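No paired analysis was possible because each line has 1 S-phase library and no result comes from a test. The difference between the lines turned its sign in 8 of the 22 domains, 4 early and 4 late, in 11 of their values under alternatives, and all 8 had differed by less than 15 points. The extremes were 1.08, 2.33, 6.89 and 0.104 points for the long-arm domains from 19040001, 32480001, 34960001 and 43200001, -0.48 for the one from 24240001, and 1.42, -0.337 and -5.78 points for the short-arm domains from 2240001, 4160001 and 13360001. The chromosome mean and the 7 regions kept their direction under the alternatives run, as did both arms wherever their split stayed at the centromere. With the 373 bins called in at least 99% of cells, the chromosome mean differed by -1.26 points. The arm split then moved off the centromere, and the part past it had shares of 75.7% in DKO1 and 78.4% in HCT116. Its difference of -2.72 points is thus not that of the long arm. In this setting 7 early domains were lower, 39 bins were lower and 3 higher, and 3 regions were lower and 0 higher. In the cleaner cells (code 0 in at most 1% of bins, 60 DKO1 and 187 HCT116 cells in 4 strata), 14 bins and 0 regions were higher, and 0 DKO1 cells and 1 HCT116 cell were outlying. With code 0 counted as unreplicated, the chromosome mean differed by -1.60 points, 78 bins were lower and 5 higher, 4 regions were lower and 1 higher, and the pair difference was 4.47 points. From 30 to 70% progress 11 bins were higher. No region was higher (0) with strata of 5 points, without matching, at 20 points or with runs of at least 10 bins. At 10 points 168 bins were lower and 43 higher, in 14 and 4 regions, and at 20 points 51 bins were lower and 1 higher. With a limit of 10 points 18 DKO1 and 9 HCT116 cells were outlying. Early domains took 32.5% of bins with domains from DKO1 alone, 43.7% with the border set at 40% and 28.7% at 60%. The causes were not tested, apart from the fewer bins or cells that some settings leave. The chromosome mean ranged from -3.42 to -1.26 points. Leaving out the setting of 99% calls, the long arm ranged from -3.22 to -1.22 points, and the lowest value of the short arm was -4.32 points. Of 286 values of single domains, regions and timing classes under alternatives, 62 moved beyond their spread. Few cells past 70% progress and 1 library per line limit every value.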
